A study of Mus musculus with 9 samples.

Results

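Wnt4 and 8 further genes of vesicle induction and of the canonical Wnt response were followed in mouse renal vesicles. The vesicles were wild type or mutant for the transcription factor Lim1, now named Lhx1. The genes were taken by name from a list of 10, made of induction genes (Wnt4, Pax8, Greb1l, Npy), TCF/LEF factors (Lef1, Tcf7) and beta-catenin readouts (Axin2, Sp5, Lgr5, Ccnd1). Every probe set whose only gene symbol in the platform annotation was one of these names was included. That gave 17 of the 45101 probe sets on the array, for 9 of the 10 genes. Tcf7 had no probe set with that symbol, so its expression was not analysed, and it enters only the promoter search below. No measured value entered the choice of genes, although earlier results of these data were known when the list was made.

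The study captured renal vesicles by laser microdissection from embryonic kidneys at E12.5. Vesicles from wild-type kidneys made up 5 arrays and vesicles from Lim1 mutant kidneys 4 arrays, each from roughly 30 to 50 vesicles and each described by the submitters as biologically independent. The labels name no strain, no allele and no agent for either group, and they do not say how many embryos or litters a sample holds or whether the mutation was limited to certain cells. The p values below therefore measure the spread between these samples only.

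Renal vesicles are small epithelial balls from which nephrons grow. They form when Wnt9b from the ureteric bud induces Wnt4 in neighbouring mesenchyme, and Wnt4 in turn drives the change from mesenchyme to epithelium. In the canonical branch of the pathway, Wnt binding to frizzled receptors stabilises beta-catenin, which enters the nucleus, joins TCF/LEF proteins on DNA and switches on target genes. Several of these targets, Axin2 among them, feed back to damp the signal.

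The letters that TCF/LEF proteins are known to prefer were searched for in the RefSeq promoter windows (GRCm38.p6, 250 bases before to 50 after a gene's start). The 7-base forms searched were CTTTGAA, the same with T as last letter (CTTTGAT), the same with T before a last A (CTTTGTA), and the one ending in a run of T (CTTTGTT). Both strands were searched, overlapping matches were each counted, and no other motif was searched. Windows were given for 7 of the 10 genes, 11 windows in all. Matches were found in 2 of them, the window of Sp5 with 2 matches and 1 of the 4 windows of Lef1 with 1 match, while 16.9% of all 32851 windows held at least 1 match and 1.94% held 2 or more. The 250 bases upstream of Sp5 and of Axin2 are shown 5′ to 3′ because both genes are classical readouts of the pathway and their fitted differences between the groups had opposite signs, neither past the threshold (below). Capitals mark the matches, of which the Axin2 stretch has none, which says only that these letters are not in this stretch.

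Sp5, chr2:70474673-70474922, plus strand: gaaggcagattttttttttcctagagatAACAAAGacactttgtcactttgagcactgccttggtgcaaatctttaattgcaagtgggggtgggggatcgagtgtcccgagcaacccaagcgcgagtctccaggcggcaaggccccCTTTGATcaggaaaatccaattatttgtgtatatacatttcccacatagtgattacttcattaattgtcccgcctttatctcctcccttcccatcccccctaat

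Axin2, chr11:108920099-108920348, plus strand: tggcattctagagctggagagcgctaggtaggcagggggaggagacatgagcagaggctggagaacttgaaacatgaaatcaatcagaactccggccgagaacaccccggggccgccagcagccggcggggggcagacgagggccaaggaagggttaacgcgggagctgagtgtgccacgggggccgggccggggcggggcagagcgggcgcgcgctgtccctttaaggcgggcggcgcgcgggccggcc

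A match is a description of the letters and not evidence of binding, which was not measured. The 2 Sp5 matches begin at positions -222 and -104 relative to the start.

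The arrays were first checked against their labels. At 1 of the 2 Lhx1 probe sets (1421951_at) the signal was 2327 to 17587 on the wild-type arrays and 6.88 to 10.5 on the mutant arrays (log2 difference -6.64 ± 0.57 SE, limma adjusted p = 0.00329). At the other (1450428_at) it was 1696 to 18555 and 4108 to 4951 (-0.86 ± 0.58, limma adjusted p = 0.833). Of 9 listed vesicle markers, Lhx1 included, 8 were measured and these 8 passed the filter on dim probe sets, among them Jag1, Dll1 and Cdh6. Their summed signal was 59460 to 171243 for wild-type arrays and 68913 to 89113 for mutant arrays. Array medians ran from 144 to 195 signal units, and precision is limited by how few arrays there are. Wild-type arrays 3 and 1 stood apart: across probe sets they correlated with the remaining arrays at 0.783 and 0.802 on average, where the rest had 0.826 to 0.864. For markers of other cells, the ranges of the summed signal overlapped between the groups in every list, and these sums were not tested. The summed signal of 12 measured ureteric bud markers of 13 was 14255 to 83334 (highest on wild-type array 2) on the wild-type arrays and 8954 to 19833 on the mutant arrays, that of 13 endothelial markers of 13 was 5388 to 24036 and 5064 to 6670, and that of 6 podocyte markers of 8 was 7802 to 18547 and 16264 to 25008. That of 12 stromal markers of 12 was 27696 to 194884 (highest on wild-type array 3) and 32646 to 68338, that of 10 cap mesenchyme markers of 11 was 22195 to 37038 and 24194 to 30137, and that of 8 neural markers of 10 was 1217 to 7013 and 969 to 1666. No marker was at 0 on any array. The log2 differences of tested markers lay below 0 for 8 of 9 bud genes, 11 of 11 endothelial genes and 6 of 6 neural genes. They lay above 0 for 4 of 4 podocyte genes. The other lists were mixed, with 4 of 8 vesicle genes, 5 of 9 cap mesenchyme genes and 7 of 12 stromal genes below 0. Among the vesicle genes they ran from -1.33 for Dll1 to 1.17 for Cdh4. Over all 13226 genes tested, 5759 lay below 0 and 7467 above. The filter used the mean over all arrays, so a dim marker could pass it through the group where it was higher. Dim markers include Erg (means of 626 wild type and 112 mutant), Nefm (404 and 96.8) and the podocyte gene Nphs1 (96.7 and 152). The marker counts are therefore not free of the filter. The bud marker Gata3, below the filter, was at 684 ± 874 (SD, n = 5, 15.0 to 2141) on the wild-type arrays. On the mutant arrays it was at 7.02 ± 2.74 (n = 4, 4.44 to 10.7), without overlap. Its log2 difference was -2.77 ± 0.95 in the fit with no filter (limma unadjusted p = 0.0132, adjusted p = 0.807). The values next to the gap, 10.7 and 15.0, were under the 42.4 added before the log. How many of all probe sets had mutants wholly lower was not counted. The other bud markers below the filter, Krt19 and Hoxb7, had differences of 0.09 and 0.38 in that fit, and the tested bud marker Wnt11 had 0.77. The part of these cells in the results below was not tested.

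None of the genes followed here changed past the threshold, and their tendencies ran in both directions. Differences were fitted with limma on log2(signal + 42.4) after quantile normalisation, and p values were adjusted by the Benjamini-Hochberg method over all 27022 probe sets tested. On this scale the change of a dim gene is understated. Of the 17 probe sets, 13 passed the filter, at least 1 for each of the 9 genes. None of the 13 had an adjusted p under 0.05 (the lowest was 0.696), where 0.0333% of all tested probe sets did. An unadjusted p under 0.05 was reached by 4 of the 13, or 30.8%, against 6.67% of all tested probe sets. They belong to Axin2, Npy, Wnt4 and Ccnd1, and for Wnt4 and Ccnd1 it was not the probe set chosen to represent the gene. At the representative probe sets only Axin2 and Npy of the 9 genes were under 0.05, where 7.73% of all 13226 genes were. Of the 13 differences, 6 lay above 0 and 7 below. The filter used the mean over all arrays, and Greb1l 1442703_at and Lgr5 1450988_at passed it only through the mutant arrays. Their mean log2 signals were 6.98 and 7.10 in the wild type and 9.09 and 8.13 in the mutants. Both count among the differences above 0, so these counts are not free of the filter. Over the 9 genes, each at its probe set with the highest mean, 4 were above 0 and 5 below, with a median of -0.32, against a median of 0.07 over all 13226 genes tested. No gene was under 0.05 in two-sided exact permutation tests either, after adjustment over the 9 genes.

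**Figure D1:**
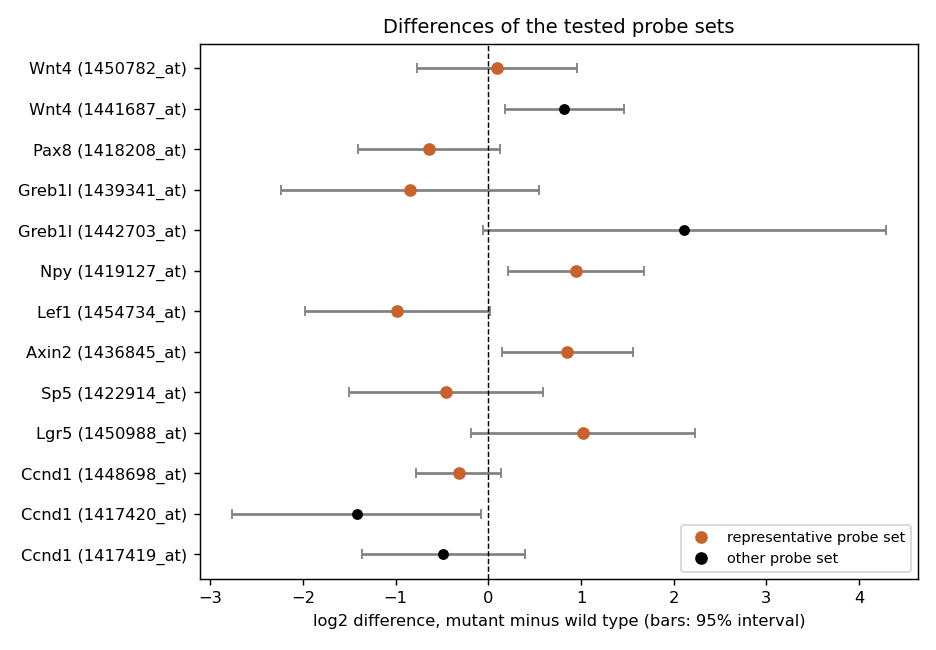
Log2 difference, mutant minus wild type, of the 13 probe sets that passed the filter (points), with 95% intervals from limma (bars); orange points are the probe sets that represent their gene. The intervals of Axin2, Npy, 1 Wnt4 probe set and 1 Ccnd1 probe set do not reach 0 before adjustment, and those of the other 9 probe sets do.

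Wnt4, the inducing signal itself, was abundant in both groups. At its representative probe set (1450782_at, annotated with NM_009523) the wild-type arrays 1 to 5 read 41699, 16325, 12925.5, 40835 and 28897, and the mutant arrays 1 to 4 read 31046, 21366, 15930.4 and 43230.5. The groups overlapped over nearly their whole range, and the highest value of all was on a mutant array. The means were 28137 ± 13385 (SD, n = 5) and 27893 ± 11985 (n = 4). The log2 difference was 0.10 ± 0.39 (SE), with a 95% interval of -0.77 to 0.96 (limma adjusted p = 0.981, exact permutation p = 0.841). The interval is wide, so a change of up to about its bounds in either direction could not be told from none with these arrays. The direction is not settled either, since the difference was -0.06 with median centring, -0.03 without wild-type arrays 1 and 3, and -0.05, -0.14, -0.03 (-0.035) and -0.14 without mutant array 1, mutant array 4, wild-type array 2 and wild-type array 3, each left out alone.

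The other Wnt4 probe set (1441687_at, annotated with the sequence AW047257) did not follow the first. It read 26118, 8399, 15736, 10396.5 and 12527.5 in the wild type and 17698, 35302, 21929.8 and 23001 in the mutants. All 4 mutants lay above the wild-type median, and 1 lay above wild-type array 1, the highest of its group. Its log2 difference was 0.82 ± 0.29 (95% interval 0.18 to 1.46, limma unadjusted p = 0.0167, adjusted p = 0.696). Across the 9 arrays the pair of Wnt4 probe sets correlated at r = 0.124 and rho = 0.167 (exact permutation p = 0.746 and 0.678, adjusted over 5 such pairs 0.778 and 0.678), and without mutant array 3 and wild-type array 3, the arrays farthest from the median, at r = 0.244. Where the probe sets lie on the transcript was not analysed here.

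Pax8, a transcription factor needed with Pax2 for nephron formation, tended lower in the mutants. At 1418208_at the wild-type arrays read 3505, 4233, 3074, 6080.25 and 7651, and the mutants 2259, 3264, 2380.06 and 4298. Of the 4 mutants, 2 lay below the lowest wild-type array and 1 above the wild-type median, so the groups overlapped. The log2 difference was -0.63 ± 0.35, with a 95% interval of -1.40 to 0.13 (limma adjusted p = 0.795, exact permutation p = 0.111, 0.25 adjusted over the 9 genes). Its other probe set (1446561_at) was below the filter, at 29.7 to 697 in the wild type and 12.6 to 247 in the mutants.

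Greb1l, a gene required for kidney formation, gave readings of opposite sign at its 2 probe sets. Its representative probe set (1439341_at) read 2146, 517, 1422, 1634 and 1449.86 on the wild-type arrays and 597, 1188, 1577 and 223 on the mutant arrays. The lowest of all was mutant array 4, but wild-type array 2 was lower than 3 of the mutants. The log2 difference was -0.84 ± 0.63 (limma adjusted p = 0.858), and -0.32 without mutant array 4 or -0.54 without wild-type arrays 1 and 3. At the other probe set (1442703_at) the wild type read 9.65 to 226, while the mutants split, with 999 and 4617 on arrays 1 and 2 and 93.4 and 97.4 on arrays 3 and 4. Its difference of 2.11 ± 0.99 (limma adjusted p = 0.755) came with a mutant spread of 2.47 (SD on the log2 scale) against 0.94 in the wild type, and it was 1.08 without mutant array 2. The pair of probe sets correlated at r = -0.121 and rho = -0.35 over the 9 arrays (exact permutation p = 0.778 and 0.359, adjusted 0.778 and 0.448), and at r = -0.609 without mutant array 4 and wild-type array 2.

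Npy, which encodes the secreted peptide neuropeptide Y, tended higher in the mutants. It read 5447, 3051, 3027, 2388 and 3699 in the wild type and 4294, 9108, 8330.32 and 5666 in the mutants. Of the 4 mutants, 3 lay above every wild-type array, and mutant array 1 lay above all wild-type arrays but array 1. The means were 3522 ± 1171 and 6849 ± 2253, a log2 difference of 0.95 ± 0.33 (95% interval 0.21 to 1.68). It did not pass over all probe sets (limma adjusted p = 0.696) or by exact permutation (p = 0.0317, adjusted over the 9 genes 0.143).

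**Figure D2:**
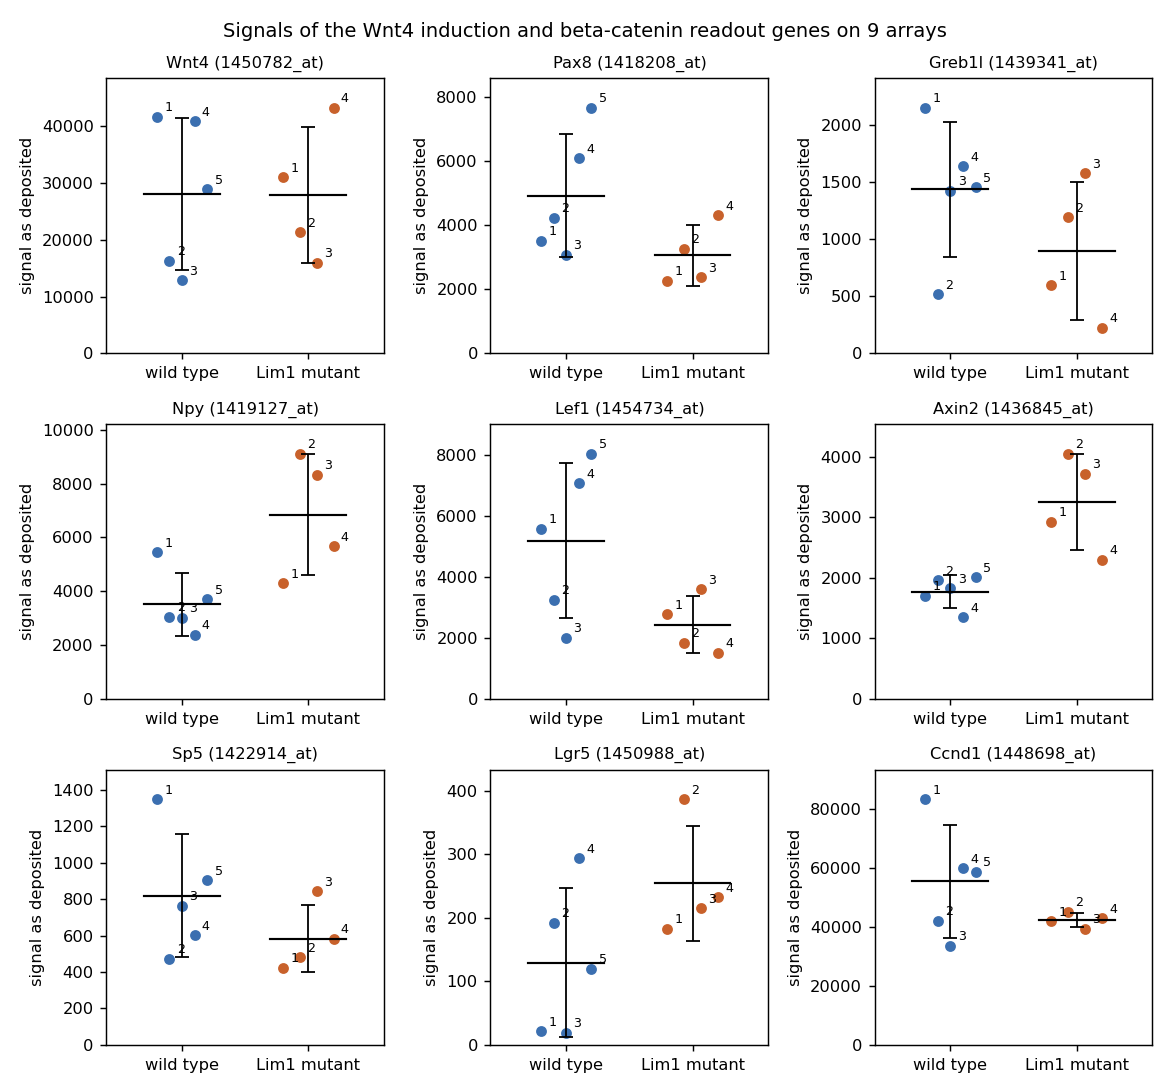
Deposited signal (linear axis from 0) at the representative probe set of each of the 9 genes; every point is 1 array with its replicate number, horizontal lines are group means and bars 1 SD (5 wild-type and 4 mutant arrays). In the Axin2 panel every mutant point lies above every wild-type point, and in each of the other panels the groups overlap.

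Lef1, the HMG-box partner of beta-catenin that is itself a readout of the pathway, tended lower in the mutants. At 1454734_at the wild-type arrays read 5593, 3259, 2019, 7087 and 8049 and the mutants 2793, 1855, 3597 and 1523. All 4 mutants lay below the wild-type median, but wild-type arrays 2 and 3 lay within the mutant range. The log2 difference was -0.98 ± 0.45, with a 95% interval of -1.98 to 0.02 (limma adjusted p = 0.748, exact permutation p = 0.0952, 0.25 adjusted over the 9 genes). The second Lef1 probe set (1421299_a_at) was below the filter, at 4.95 to 103 and 3.99 to 143.

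Axin2, the scaffold of the beta-catenin destruction complex and a feedback target of the pathway, was the 1 gene of the list whose groups did not overlap. At 1436845_at the wild-type arrays read 1706, 1966, 1831, 1348 and 2016, and the mutants read 2926, 4049, 3721 and 2301. The lowest mutant was above the highest wild-type array, both in the deposited signals and after normalisation. Among the 13 probe sets tested this is 1, or 7.69%, where the mutants lay entirely above the wild type at 1.37% of all tested probe sets. A single such probe set is no result about the genes of the list. The means were 1773 ± 267 (SD, n = 5) and 3249 ± 789 (n = 4), a log2 difference of 0.85 ± 0.32 with a 95% interval of 0.15 to 1.56. The adjusted p over all probe sets was 0.715 (limma, unadjusted p = 0.0223), which ranked 835 among all tested probe sets. By exact permutation p = 0.00794, which is as small as this design permits, or 0.0714 once adjusted over the 9 genes. The exact permutation p was 0.0238 (adjusted 0.179) with median centring. Without wild-type arrays 1 and 3, which leaves fewer splits, it was 0.0571 (adjusted 0.154). The second Axin2 probe set (1421341_at) was below the filter, at 7.77 to 90.5 and 3.69 to 84.1, and bears on neither direction. In a captured bulk sample, more cells that express a gene and more RNA per cell cannot be told apart.

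Sp5, a zinc-finger factor and direct target of beta-catenin whose upstream stretch is printed above, did not share the direction of Axin2. It read 1348, 473, 765, 602 and 904 on the wild-type arrays and 425, 481, 844 and 584 on the mutant arrays, so the groups overlapped, with 1 mutant below the lowest wild-type array. The log2 difference was -0.45 ± 0.48 (95% interval -1.50 to 0.59, limma adjusted p = 0.901). It was -0.23 without wild-type array 1, -0.28 without mutant array 1, -0.13 without wild-type arrays 1 and 3, and -0.30 with array weights.

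Lgr5, a receptor for R-spondins that strengthens Wnt signals, was dim. At 1450988_at it read 21.7, 192, 19.2, 293 and 119.6 on the wild-type arrays and 183, 386, 215 and 233 on the mutant arrays. The mutants were close together, and the wild type spread 15.3-fold from lowest to highest, against 2.11-fold in the mutants. The log2 difference was 1.03 ± 0.55 (95% interval -0.18 to 2.23, limma adjusted p = 0.793), and it was as low as 0.30 without wild-type arrays 1 and 3, which hold the 2 lowest readings, and 0.56 with the median signal as the pseudocount. The other Lgr5 probe set (1444519_at) was below the filter, at 34.8 to 193 and 63.8 to 178.

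Ccnd1, which encodes the G1 cyclin D1 and is induced by beta-catenin in many tissues, had 3 probe sets, all annotated with NM_007631, and all 3 had differences below 0. The representative one (1448698_at) read 83136, 42015, 33554, 59874 and 58718.5 on the wild-type arrays and 41969, 45094, 39403 and 42983 on the mutant arrays. The mutants lay within the wild-type range, spread 1.14-fold against 2.48-fold, and all 4 were below the wild-type median. Its log2 difference was -0.32 ± 0.21 (95% interval -0.78 to 0.14, limma adjusted p = 0.826), and -0.49 without wild-type array 3. A second probe set (1417420_at) read 19185.5, 8086, 10563, 56280.4 and 42300.7 on the wild-type arrays and 9969, 4092, 4623 and 16911 on the mutant arrays. Of these mutants 2 lay below every wild-type array, and the difference was -1.42 ± 0.61 (95% interval -2.76 to -0.07, limma unadjusted p = 0.0405, adjusted p = 0.737). The third (1417419_at) had a difference of -0.48 ± 0.40 (limma adjusted p = 0.87), ranging from -0.20 without mutant array 3 to -0.79 without mutant array 4, with 2189 to 4782 on the wild-type arrays and 1201 to 4358 on the mutant arrays. The 3 pairs of Ccnd1 probe sets had higher coefficients than the pairs of Wnt4 or Greb1l, with r of 0.643, 0.669 and 0.773 and rho of 0.65, 0.667 and 0.767 over the 9 arrays. None of these passed after adjustment over 5 pairs (exact permutation p = 0.0659, 0.0499 and 0.0145 for r, adjusted 0.11, 0.11 and 0.0723), and without the 2 farthest arrays r was 0.649, 0.419 and 0.871. Whether the correlations of different genes' probe sets differ was not tested.

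**Figure D3:**
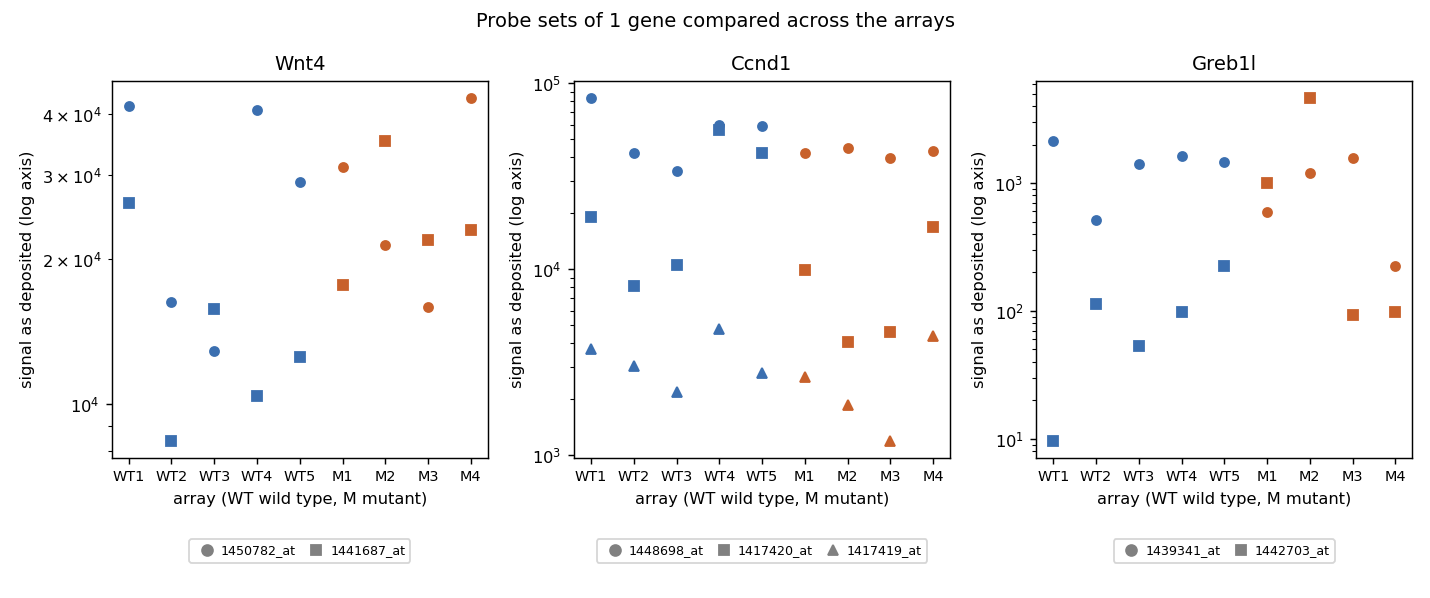
Deposited signal (log axis) of the tested probe sets of Wnt4, Ccnd1 and Greb1l on each array, wild type in blue and mutant in orange, with 1 marker shape per probe set. The Wnt4 probe sets order the arrays differently, the 3 Ccnd1 probe sets are similar in their order, and the second Greb1l probe set is at 999 and 4617 on mutant arrays 1 and 2 and at most 226 elsewhere.

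Whether the other genes followed Wnt4 from array to array was examined over the 9 arrays at the representative probe sets, in 8 relations. Ccnd1 had the highest coefficient, r = 0.678 and rho = 0.583 (exact permutation p = 0.0503 and 0.108, adjusted over the 8 relations 0.403 and 0.775). With each group centred on its own mean it was r = 0.801 and rho = 0.6 (permutation p = 0.00303 and 0.0968, adjusted 0.0242 and 0.387). Centred values were permuted freely between the groups, with no allowance for the group means removed. The p values of centred coefficients are therefore approximate and not exact. Wild-type array 3 and mutant array 3, where both genes were lowest in their group, set the coefficient of 0.801. Without them, with the group means of all 9 arrays kept, r was 0.562 (permutation p = 0.203, adjusted 0.697). Uncentred it was r = 0.211, so the relation rests on those arrays. For Pax8 r was 0.341 and rho 0.483 (exact permutation p = 0.362 and 0.194, adjusted 0.815 and 0.775), and r was 0.0339 without the same 2 arrays. For Lef1 r was 0.267, for Lgr5 0.139, for Sp5 -0.0871, for Npy -0.0991 and for Greb1l -0.255, with rho of 0.0667, 0.2, -0.0167, -0.0167 and -0.1. None of these 5 passed (exact permutation p for r of 0.474, 0.697, 0.82, 0.792 and 0.51, adjusted 0.815 to 0.82), and without the 2 arrays r was 0.141, -0.303, 0.223, -0.107 and -0.0265. For Axin2 the groups did not overlap and neither has 6 arrays, so no uncentred coefficient is given. With each group centred on its own mean, Axin2 ran against Wnt4, at r = -0.684 and rho = -0.667. This did not pass (approximate permutation p = 0.0476 and 0.0589, adjusted over the 8 relations 0.19 and 0.387). Without wild-type array 3 and mutant array 3, with the same group means kept, it was r = -0.774 and rho = -0.821 (approximate permutation p = 0.0484 and 0.0341, adjusted 0.387 and 0.273).

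**Figure D4:**
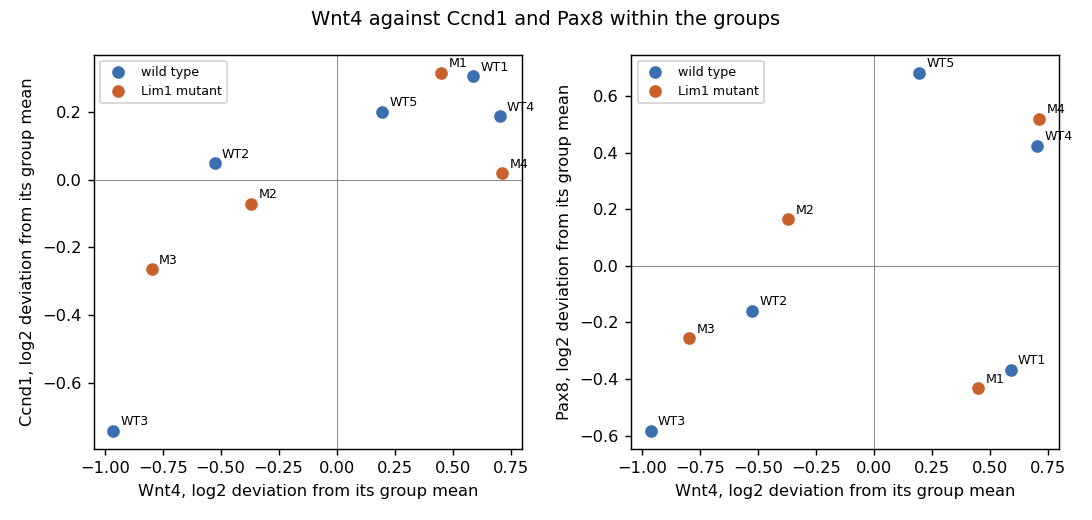
Log2 signal of Ccnd1 (left) and Pax8 (right) against Wnt4, each as the deviation of an array from the mean of its group, with arrays labelled (WT wild type, M mutant). In the left panel wild-type array 3 lies lowest for both genes and mutant array 3 next, and in the right panel wild-type array 1 and mutant array 1 have high Wnt4 with low Pax8.

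The genes whose pattern over the 9 arrays was most like that of Wnt4, among 13225 genes above the filter, were Cenpu (r = 0.948, rho = 0.967), Ino80b (0.932, 0.817), Dlgap5 (0.921, 0.883), Cxxc1 (0.912, 0.967) and Ecpas (0.908, 0.883). Those most like Axin2 were Slc23a2 (r = 0.966, rho = 0.95), Ergic3 (0.953, 0.883), Hs3st6 (0.952, 0.95), Foxp4 (0.952, 0.917) and Creld2 (0.95, 0.917). These were picked as the highest of many coefficients over arrays that share the same vesicle samples, so they are descriptions with no test, and for Axin2 they include the gap between the groups. Slc23a2, which encodes a vitamin C transporter, read at most 1119 on wild-type arrays and at least 2512 on mutant ones (log2 difference 1.75 ± 0.37, limma adjusted p = 0.329). It was picked for its likeness to Axin2, whose groups did not overlap, so this gap is not a separate result.

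The rest of the pathway was read from lists of 97 genes by role, of which 94 were measured and 79 tested. None passed the threshold. At the probe set representing a gene, an unadjusted p under 0.05 was reached by 5 with a higher and 1 with a lower mutant level, 7.59% of those tested, against 7.73% of all 13226 genes, so the share was near the background. Of the 79, 51 had differences above 0 and 28 below, with a median of 0.15, against 7467 above, 5759 below and a median of 0.07 over all genes. The filter used the mean over all arrays, so dim genes could pass it through the group where they were higher. The counts above and below 0, here and in the lists that follow, are not free of it.

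Among 11 tested Wnt ligands, 4 lay above 0 and 7 below (median -0.22, 0.06 without wild-type arrays 1 and 3, and -0.34 with a gene's tested probe sets averaged). Wnt9b, the bud signal that induces Wnt4, was at 441 ± 290 on the wild-type arrays and 292 ± 271 on the mutant arrays (log2 difference -0.88 ± 0.66, limma adjusted p = 0.857). Wnt11, a ligand of the bud tip, had a difference of 0.77 ± 0.49 (limma adjusted p = 0.824) and Wnt7b, a ligand of the bud stalk, one of -0.40 ± 0.54 (limma adjusted p = 0.93), or -0.02 without wild-type arrays 1 and 3. Wnt9b, Wnt11 and Wnt7b also stand in the ureteric bud list above.

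Among 19 tested receptors, co-receptors and R-spondins, 14 lay above 0 and 5 below (median 0.26). Fzd7, a frizzled receptor, was the named receptor whose groups did not overlap, at 17988 ± 2149 and 28035 ± 6095 (difference 0.61 ± 0.17, limma unadjusted p = 0.0037, adjusted p = 0.586). The mutants lay entirely above the wild type at 1.37% of all tested probe sets, so a single such gene in a list is no result about the receptors. Fzd4 had a difference of 0.19 ± 0.36, which turned to -0.09 without wild-type arrays 1 and 3 and was -0.12 at its other tested probe set. Fzd8 had one of -0.27 ± 0.58, with -0.79 at its other tested probe set, and the co-receptor Lrp6 one of 0.26 ± 0.31, with -1.01 at its other. Lgr4, an R-spondin receptor related to Lgr5, had one of -0.35 ± 0.46 (-0.64 without the same arrays), and Lrp5 was below the filter at 46.9 and 81.9.

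Of 17 tested genes of secretion and cytoplasmic transduction, 11 lay above 0 and 6 below (median 0.14, 0.006 without wild-type arrays 1 and 3, and 0.004 with probe sets averaged). Ctnnb1, which encodes beta-catenin itself, was at 71990.2 ± 16886 and 65891 ± 12689 (difference -0.11 ± 0.14, limma adjusted p = 0.927), with -0.21 without wild-type arrays 1 and 3 and 0.11 at its other tested probe set. Its kinase Gsk3b had a difference of 0.15 ± 0.49, which turned to -0.21 without those arrays, and its other tested probe sets were at -0.18, 1.31, 0.59 and -0.79. The scaffold Apc had one of -0.25 ± 0.55, with -0.52 without those arrays and 0.21 at its other tested probe set. Transcript levels say nothing of the amount of stabilised beta-catenin protein, which was not measured.

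Of 16 nuclear partners and cofactors, all tested, 9 lay above 0 and 7 below (median 0.07, 0.19 without wild-type arrays 1 and 3, and 0.12 with probe sets averaged). Tcf7l1, a TCF factor known mostly as a repressor, had a difference of -0.59 ± 0.64, which turned to 0.06 without wild-type arrays 1 and 3 and was 0.86 at its other tested probe set. Tcf7l2 had one of 0.70 ± 0.72, or 1.34 without those arrays. The beta-catenin cofactor Bcl9 had one of -0.59 ± 0.54, with 0.22 at its other tested probe set, and the corepressor Tle4 one of -0.35 ± 0.34, with -2.09 at its other tested probe set.

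Of 16 other readouts tested, 13 lay above 0 and 3 below (median 0.40, and 0.36 without wild-type arrays 1 and 3). A dim gene could pass the filter through the group where it was higher, so these counts are not free of the filter. Rnf43 was dim, at 125 ± 183 on the wild-type arrays and 207 ± 42.6 on the mutant arrays. Nkd1, a feedback inhibitor that binds dishevelled, was at 1188 ± 849.6 and 2675 ± 1519 (difference 1.17 ± 0.55, limma unadjusted p = 0.0567, adjusted p = 0.757), while its other 3 tested probe sets were at -0.23, 0.13 and 0.05. The membrane ubiquitin ligases Rnf43 and Znrf3, which remove frizzled receptors, had differences of 1.08 ± 0.66 and 0.32 ± 0.40, with 0.88 at the other Znrf3 probe set tested. Those of Myc, Mycn and Tnfrsf19 were 0.09 ± 0.37, -0.09 ± 0.29 and 0.11 ± 0.46. Mycn was at -0.25 and Tnfrsf19 at 0.21 without wild-type arrays 1 and 3, and the other tested probe sets were at -0.04 and 0.19 for Mycn and 0.13 for Tnfrsf19.

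**Figure D5:**
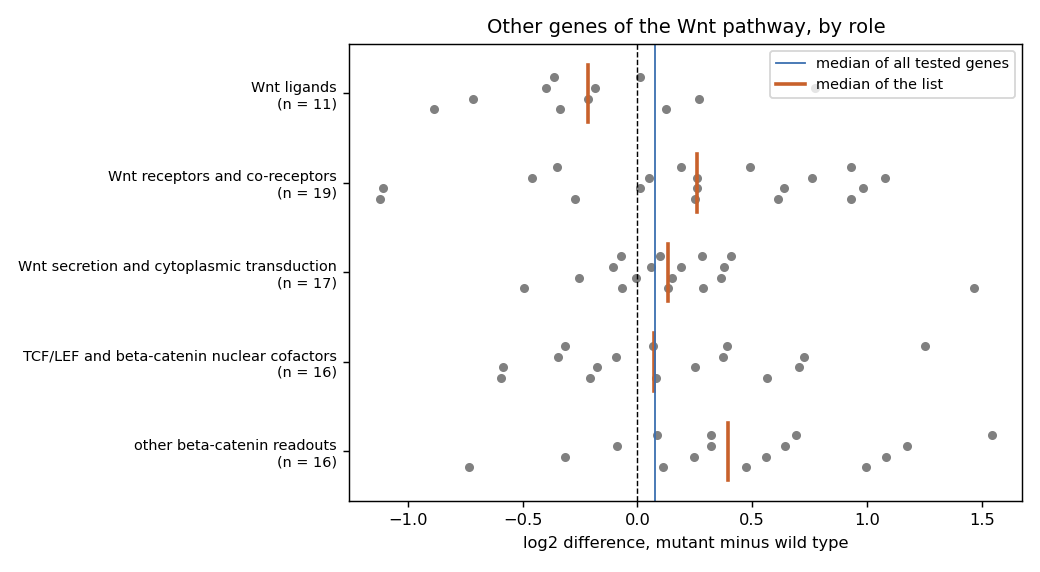
Log2 difference, mutant minus wild type, of the tested genes of 5 lists of Wnt pathway genes (grey points, 1 per gene at its representative probe set), with the median of each list in orange and the median of all 13226 tested genes in blue. The list medians run from -0.22 for the ligands to 0.40 for the other readouts, and the genes of every list lie on both sides of 0.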

How the data were processed

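Gene expression was measured on 9 Affymetrix arrays. The authors deposited linear intensity values, 1 for each probe set on each array, made with GCOS per the submitters' processing notes. The sources used here do not give its algorithm or scaling target. The deposited 2% trimmed mean was 1500 on every array. Names came from the platform annotation: 34958 probe sets had 1 symbol, 932 several and 9211 none.

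Values were transformed as log2(signal + 42.4), the 25th percentile, quantile normalised (array medians differed by 0.349) and filtered to the 27022 of 45037 non-control probe sets at or above the 40th percentile of the mean. limma 3.58.1 (R 4.3.3; lmFit, eBayes with trend) tested group alone, two-sided, with Benjamini-Hochberg adjustment, and was tested on simulated data. Single values were compared by exact permutation (Python 3.11.15). The members and lists were chosen with earlier results of these data known. Named were all members, Lhx1, 22 pathway genes set beforehand, any other list gene past the threshold, and the 5 genes most like Wnt4 and Axin2. Same-numbered arrays of the groups had deviations correlating at -0.105 to 0.0537, so numbers were not taken as pairs.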

Additional observations from a re-analysis of the deposited data

Results flagged for a closer look

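In 38 groups of signals, covering each probe set of the 9 genes and of Lhx1 in each genotype, Dixon's test singled out an array in 3 of them; about 1.9 such groups (1 in 20) would arise by chance. For Pax8, wild-type array 4 read 697 at the dim probe set 1446561_at, against 29.7 to 127 on the other wild-type arrays. For Axin2, wild-type array 5 read 90.5 at the dim probe set 1421341_at, against 7.77 to 18.5. For Lhx1, wild-type array 4 read 17587 at 1421951_at, against 2327 to 5280 on the other wild-type arrays.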

How the results depend on the processing

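Of 234 refits of the 13 tested probe sets (18 alternatives each), 228 kept their direction and none passed the threshold; the 6 that reversed all concern Wnt4 at 1450782_at, at -0.059 with median centring, -0.026 without wild-type arrays 1 and 3, and -0.142 to 0.361 with 1 array left out. The exact permutation p of Wnt4 under the first 2 was 0.905 and 0.971, and 0.446 to 0.971 with 1 array left out. No gene passed adjusted exact permutation under any of 14 alternatives. The correlation of Wnt4 with Sp5 reversed to 0.136 without quantile normalisation and 0.233 with median centring, and that with Lgr5 to -0.187 without wild-type arrays 1 and 3; the cause was not tested. Over all tested probe sets, 9 passed in limma, 7 to 12 under the other alternatives, 3 to 8 with 1 array left out (7 and 8 without wild-type arrays 1 or 3, 3 to 5 without any other), 0 with the replicate number as a replicate block (1756 at an unadjusted p under 0.05) and 0 without wild-type arrays 1 and 3 (2001 unadjusted). Among the 13, the standard error ran from 0.21 (Ccnd1 1448698_at) to 0.99 (Greb1l 1442703_at, a dim probe set in the wild type). Of named pathway genes, Fzd4, Gsk3b and Tcf7l1 changed sign without wild-type arrays 1 and 3.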
